A study of Mus musculus with 4 samples.

Results

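The 4 genes described here, B4galnt1, AI464131 (called Net37 in the study), Lpar5 and Phospho1, were followed up by the study because a CpG island (CGI) toward the 3' end of each had a higher methylation level in colonic stem cells at weaning than at birth. They are 4 of 21410 autosomal protein-coding genes of the GENCODE M1 annotation on the mouse mm9 build. Each was read from 5 kb upstream of the gene to 2 kb past it, which gave 1461 CpGs in 294 bins of 200 bp. Of these, 227 bins were tested, those that held 2 or more CpGs and 10 or more calls per library. The genes were thus selected on the stem cell levels of the 2 ages in these libraries, so that difference is given below as a description and carries no test. The study does not say whether the differentiated libraries also entered the choice, and it compared the gene lists of both populations. The change in differentiated cells was tested, but it is not taken as evidence independent of the selection.

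In mammals DNA methylation is found mostly at CpG dinucleotides, and most CpGs outside islands are methylated. CGIs are stretches dense in CpGs that usually stay unmethylated when they lie at the start of a gene, where methylation goes along with silencing. CGIs inside genes or at their 3' ends are more often methylated, and methylation there can go along with transcription. B4galnt1 encodes the N-acetylgalactosaminyltransferase that makes complex gangliosides, glycosphingolipids of the cell surface. AI464131 encodes a membrane protein of glycoside hydrolase family 31, a family of enzymes that cut sugars from glycans. Lpar5 encodes a G protein-coupled receptor for lysophosphatidic acid, a lipid signal. Phospho1 encodes a phosphatase of phosphocholine and phosphoethanolamine that is best known from skeletal mineralisation.

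Whole-genome bisulfite sequencing was run on 2 sorted colon populations at postnatal day 0 (P0) and postnatal day 21 (P21), in mice whose strain the labels give as C57. Intestinal stem cells (ISCs) were Lgr5-EGFP+ cells, and differentiated epithelial cells were EpCAM+ and Lgr5-EGFP-. The mice of all 4 groups were offspring of Lgr5-EGFP-CreER knock-in mice, a line that per the study's methods had been backcrossed to C57BL/6 J, in which the endogenous Lgr5 sequences drive EGFP and an inducible Cre, crossed with wild-type C57 mice, and no group had a further allele or treatment. Whole litters were pooled at P0 and reporter-positive offspring at P21, so that at P0 cells of littermates without the reporter could fall in the differentiated gate, stem cells included. The study also describes this line as mosaic, with EGFP-negative crypts in adult mice that carry the reporter. Stem cells without EGFP could therefore enter that gate at P21 as well. Each group had 1 library and no replicate, so the spread between animals is unknown, and a test compares 2 libraries rather than 2 conditions. Whether both populations of an age came from the same pool of mice is not given in the sources used here.

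Total calls per library ran from 1023427645 to 1188114423, and the median CpG covered on the autosomes had 16 to 25 calls. At the island CpGs with at least 10 calls in all 4 libraries, the ISC libraries were shallower. Their median was 15 to 23 calls per CpG, against 33 to 62 in the differentiated libraries. Island CpGs with fewer calls are left out of these medians. Levels within 250 bp of the transcript start were between 0% and 2.44% for 5 epithelial genes in all 4 libraries (Epcam, Cdh1, Krt8, Vil1 and Cdx2). They were between 70.0% and 100.0% for 2 blood cell genes (Ptprc and Cd3e). Of 3 mesenchymal genes, Pdgfra and Vim were between 0% and 2.40% and Col1a1 between 31.8% and 46.6%. Since Pdgfra and Vim were as low as the epithelial genes, a low level at these starts does not tell the tissue apart. A level is the percent of calls that were methylated, with its 95% Wilson interval, and a difference between levels is given in percentage points with its 95% Newcombe interval. Between P0 and P21 in differentiated cells, Ptprc changed by -30 points (-51.9 to -10.6) on 29 and 20 calls. Col1a1 changed by 14.7 points (8.48 to 20.9), and for the other marker genes this interval included 0. To place a change within an island, its CpGs were split along the gene into a 5', a middle and a 3' part of equal CpG number. These intervals cover counting error only. A level averages over the sorted cells, so a change in every cell and a change in the makeup of the sorted cells cannot be told apart.

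Stretches of the genes that carry the pattern are printed next, each 5' to 3' on the strand of the gene, with every CpG in capitals. The 2 stretches of B4galnt1 lie next to each other in its 3' island, chr10:126607601-126607800 (+), where the level rose, and chr10:126607801-126608000 (+), where it stayed low. The same contrast is shown for Lpar5 with chr6:125031601-125031800 (+) and chr6:125032001-125032200 (+), both in exon 2. For AI464131 the bin with the most CpGs, chr4:41445401-41445600 (-) in exon 2, is shown. The last 200 bp before the transcript start are given for comparison for B4galnt1, chr10:126602047-126602246 (+), AI464131, chr4:41450110-41450309 (-), and Lpar5, chr6:125017738-125017937 (+). The rising bin of B4galnt1 and the low bin of Lpar5 were picked after their levels were seen, and the island bins of Phospho1 are not shown because annotated UTRs overlap them.
B4galnt1 island, rising: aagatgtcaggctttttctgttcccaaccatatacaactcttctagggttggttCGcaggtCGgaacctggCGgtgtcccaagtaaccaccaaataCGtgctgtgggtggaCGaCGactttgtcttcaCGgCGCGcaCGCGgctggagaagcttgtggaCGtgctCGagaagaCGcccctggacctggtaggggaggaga
B4galnt1 island, low: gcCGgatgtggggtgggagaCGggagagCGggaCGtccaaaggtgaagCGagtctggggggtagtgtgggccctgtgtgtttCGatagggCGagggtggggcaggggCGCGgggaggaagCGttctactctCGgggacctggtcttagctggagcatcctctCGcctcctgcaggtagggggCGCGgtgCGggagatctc
B4galnt1 before the start: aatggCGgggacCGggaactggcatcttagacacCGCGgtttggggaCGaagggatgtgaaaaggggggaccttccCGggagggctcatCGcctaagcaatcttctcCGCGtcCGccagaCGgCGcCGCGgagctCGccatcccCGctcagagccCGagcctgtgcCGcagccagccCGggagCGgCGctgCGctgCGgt
AI464131 island: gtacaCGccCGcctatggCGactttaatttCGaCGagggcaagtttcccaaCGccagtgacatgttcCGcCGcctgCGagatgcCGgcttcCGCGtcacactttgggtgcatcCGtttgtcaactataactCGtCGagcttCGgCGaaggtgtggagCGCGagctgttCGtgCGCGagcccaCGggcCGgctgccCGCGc
AI464131 before the start: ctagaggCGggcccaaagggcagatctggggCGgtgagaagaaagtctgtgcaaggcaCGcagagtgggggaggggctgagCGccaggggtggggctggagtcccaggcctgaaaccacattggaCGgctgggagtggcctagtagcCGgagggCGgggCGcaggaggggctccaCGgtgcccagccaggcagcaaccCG
Lpar5 island, rising: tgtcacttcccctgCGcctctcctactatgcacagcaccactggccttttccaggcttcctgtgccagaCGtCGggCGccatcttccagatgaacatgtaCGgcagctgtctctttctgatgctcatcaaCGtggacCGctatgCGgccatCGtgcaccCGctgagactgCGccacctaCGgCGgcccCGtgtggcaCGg
Lpar5 island, low: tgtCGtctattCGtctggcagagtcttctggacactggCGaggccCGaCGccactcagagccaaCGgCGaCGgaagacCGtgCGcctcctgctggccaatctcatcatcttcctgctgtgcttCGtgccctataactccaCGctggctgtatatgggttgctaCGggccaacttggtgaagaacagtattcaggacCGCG
Lpar5 before the start: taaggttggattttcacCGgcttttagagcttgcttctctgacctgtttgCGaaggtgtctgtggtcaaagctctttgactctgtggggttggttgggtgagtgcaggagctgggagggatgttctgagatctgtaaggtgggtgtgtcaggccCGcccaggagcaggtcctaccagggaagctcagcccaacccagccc

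The rising and the low stretches held similar numbers of CpGs. The 2 stretches of B4galnt1 held 14 and 16 CpGs, the second counting 1 CpG that straddles its edge, and both stretches of Lpar5 held 15. G and C made up 56.5% and 67% of the letters in B4galnt1 and 61.5% and 58% in Lpar5. A search of both strands for the core letters of the CTCF motif found no match in any of the 4 islands. The same letters were present in 13.1% of 29744 autosomal islands and in 11.7% of the 4727 islands taken as the 3' island of a gene by the rule below.

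The 4 islands differed in length and position. An island was a stretch in which every CpG belonged to 25 consecutive CpGs within 500 bp. Islands that reach within 1000 bp of the transcript start were left out, and of the others the one nearest to the 3' end of each gene was taken. In B4galnt1 (ENSMUSG00000006731.8, chr10:126602247-126609385, plus strand, 11 exons) the island, chr10:126606994-126608406, was 1413 bp long with 81 CpGs and lay over exons 8 to 10 and introns 7 to 10, upstream of the last exon. In AI464131 (ENSMUSG00000046312.4, chr4:41442637-41450109, minus strand, 2 exons) the island, chr4:41444319-41446694, was 2376 bp long with 173 CpGs, lay within exon 2 and covered the whole annotated coding sequence of 716 codons. In Lpar5 (ENSMUSG00000067714.6, chr6:125017938-125032490, plus strand, 2 exons) the island, chr6:125031334-125032512, was 1179 bp long with 72 CpGs in exon 2 and ended 22 bp past the gene. In Phospho1 (ENSMUSG00000050860.5, chr11:95685813-95693454, plus strand, 3 exons) the island, chr11:95691447-95692949, was 1503 bp long with 99 CpGs and lay over intron 2 and exon 3. The genes Zfp652 and Abi3 also overlap the Phospho1 island, so its methylation cannot be assigned to 1 gene. The density was 5.73 CpGs per 100 bp in B4galnt1, 7.28 in AI464131, 6.11 in Lpar5 and 6.59 in Phospho1.

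Differentiated cells had the rise with age as well, and 19 of their 22 gaining bins lay in a 3' island. In differentiated cells 19 of the 32 island bins gained methylation between P0 and P21 (two-sided Fisher's exact test per bin, Benjamini-Hochberg adjusted p below 0.05 and more than 15 points), where 0.992% of all 4076373 autosomal bins did. None of the 32 bins lost methylation, and the median over them was 20.9 points. In ISCs 19 of the 32 bins passed the same limits, beside 1.07% of all autosomal bins. This contrast chose the genes, so nothing is read from that count. The same bin was called in both populations 16 times. Of the 21 bins in other CGIs of the windows, which include the 5' islands of B4galnt1 and Phospho1, none was called in either direction with age in either population, and their median change was 0.237 points in differentiated cells.

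Outside CGIs most called bins were losses, and they were unevenly spread over the genes. Bins that an island covers by less than 100 bp are counted as outside. In differentiated cells 25 of the 174 bins outside CGIs lost methylation and 3 gained it, where 1.86% of all autosomal bins lost it. The losses were 12 in AI464131, 10 in Lpar5, 3 in Phospho1 and none in B4galnt1, where 2 of the 3 gains lay, both in bins that its 3' island covers in part. In ISCs, as a description, 23 of these bins passed as losses and 7 as gains, beside 1.48% of all autosomal bins that passed as losses. A loss in both populations was found in 18 bins, of which 9 were in AI464131, 7 in Lpar5, 2 in Phospho1 and none in B4galnt1. No bin of the 227 was called in opposite directions. A loss in the window is common among genes with a 3' island by the rule given above. In differentiated cells 77.0% of those with a gaining island bin had a losing bin in the window, and 74.8% of those without. Their windows held a median of 95 and 124 bins, against 55 to 60 tested bins in the 4 genes. A larger window has more bins that can be called, so these shares are not directly comparable with each other or with the 4 genes. Levels along the 4 genes are plotted by library, and the change of every bin is plotted for both populations.

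**Figure D1:**
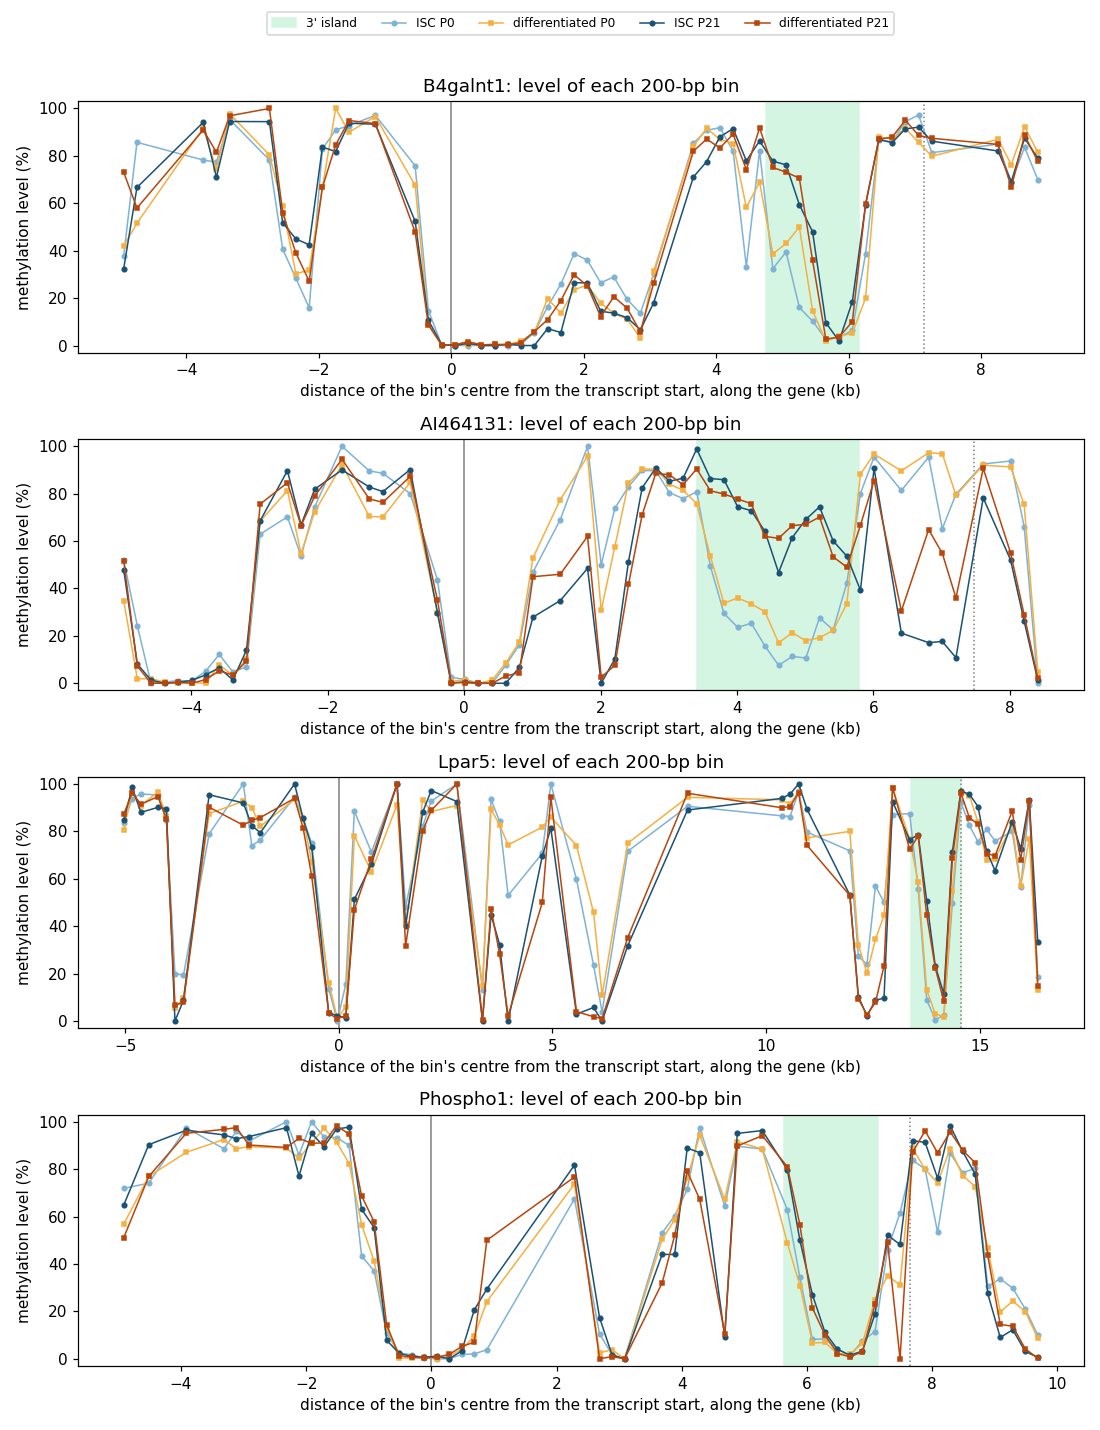
Methylation level (%) of each tested 200-bp bin in the 4 libraries against distance from the transcript start along the gene (kb), with lines joining neighbouring tested bins, the 3' island shaded, a solid line at the start and a dotted line at the gene's end. The P21 curves lie above the P0 curves over the whole AI464131 island and over the 5' side of the other 3, all curves are near 0% at the start, and the P21 curves lie below the P0 curves in part of AI464131 intron 1, past its island and at several places in Lpar5 intron 1.

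**Figure D2:**
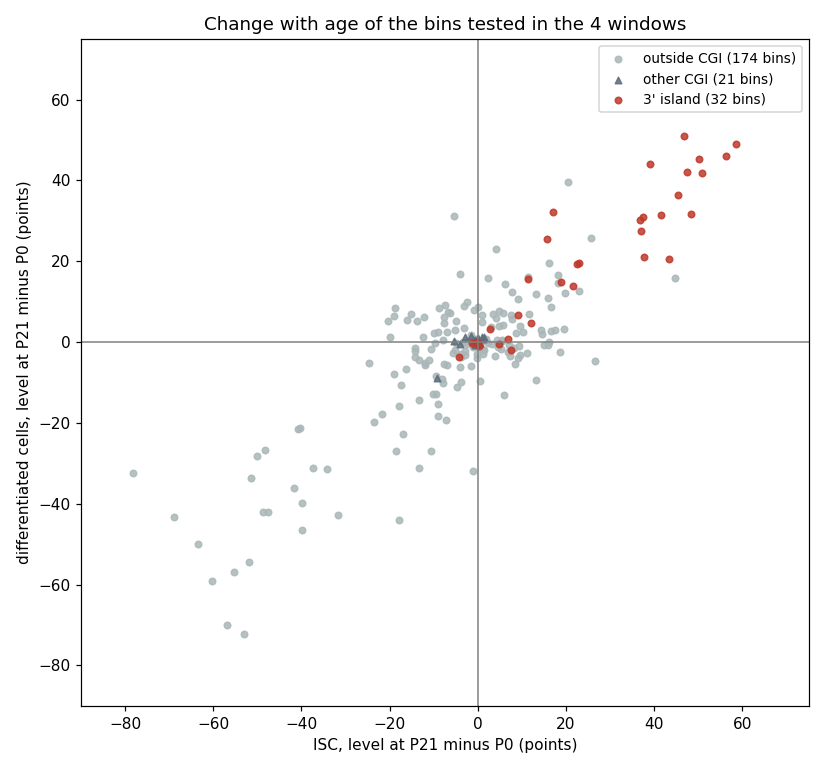
Change of level between P0 and P21 (points) of the 227 tested bins in ISCs (horizontal axis) and differentiated cells (vertical axis), with 32 bins of the 3' islands, 21 bins of other CGIs and 174 bins outside CGIs in different colours. The largest falls are all outside CGIs, and the 3' island bins lie at or above 0 or just below it in both populations.

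B4galnt1, the ganglioside enzyme, was higher at P21 over the 5' side of its island and low at both ages over most of the 3' side. In the 5' part of the island the level was 32.5% (29.1 to 36.1%) in P0 ISCs, 40.4% (37.7 to 43.3%) in P0 differentiated cells, 75.7% (72.5 to 78.6%) in P21 ISCs and 74.4% (71.7 to 76.9%) in P21 differentiated cells. In the 3' part the same libraries gave 4.24%, 3.88%, 6.93% and 5.02%. The change in differentiated cells was therefore 33.9 points (30.1 to 37.7) in the 5' part, 10.6 points (7.10 to 14.2) in the middle part and 1.14 points (-0.490 to 2.94) in the 3' part, and the intervals of the 5' and 3' parts do not overlap. Averaged over 1000 bp every library was high outside the island's bins, at 77.6% to 84.9% before them and 83.3% to 87.1% after them. Single bins at its edges, which the island covers by less than 100 bp, changed with age. The bin at its 5' edge, chr10:126606801-126607000, rose from 68.8% to 91.8% in differentiated cells (exact adjusted p = 0.0115), and ISCs were at 82.1% and 86.3%. The bin at its 3' edge, chr10:126608401-126608600 with 2 CpGs, rose from 20% (12.5 to 30.4%) to 59.6% (46.1 to 71.8%) in differentiated cells (exact adjusted p = 0.000880), and ISCs were at 38.8% and 59.3%. These edge bins and the last island bin were described after their values were seen.

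In B4galnt1 the island bin furthest along the gene that passed the limits in both populations was the rising bin printed above, and the bin next to it, also printed above, passed them in neither. In the rising bin, which covers exon 9 and its neighbouring introns, the level in differentiated cells rose from 14.7% to 35.9% (exact adjusted p = 2.61e-10), and in ISCs it was 10.3% at P0 and 48.0% at P21. In the next bin, over intron 9 and exon 10, differentiated cells had 1.92% at P0 and 2.70% at P21, a change of 0.780 points (-1.08 to 2.83), and ISCs had 2.70% and 9.63%. The first 2 bins of the island, over exon 8, rose most clearly, from 38.7% to 75.1% (exact adjusted p = 9.28e-43) and from 43.1% to 73.1% (exact adjusted p = 9.80e-14) in differentiated cells. With windows of 7 CpGs, a change of at least 15 points ran over 838 bp in ISCs, from 4751 to 5588 bp past the transcript start, and over 913 bp in differentiated cells, from 4429 to 5341 bp. A stretch here is the longest unbroken run of such windows that touches the island, so gains beyond a break are left out. The 2 stretches shared 591 bp. The one in ISCs ended inside the low bin. The one in differentiated cells broke off before the rising bin, although that bin gained methylation in these cells as well. No difference in where the gain ends is therefore read from these edges.

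AI464131, the glycosidase family gene, rose over almost its whole island. The 5' part was at 30.1% in P0 ISCs, 36.8% in P0 differentiated cells, 79.8% in P21 ISCs and 79.0% in P21 differentiated cells. In differentiated cells the change was 42.1 points (39.8 to 44.4) in the 5' part, 42.4 points (40.2 to 44.5) in the middle part and 40.9 points (38.6 to 43.1) in the 3' part, and these intervals overlap. All 11 island bins gained methylation in differentiated cells, with exact adjusted p between 1.17e-171 and 0.00669. The bin with the most CpGs, 26 of them, which is printed above, had the lowest level of the island in all libraries but P21 differentiated cells, where 2 bins at the 3' edge were lower. Its level was 7.57% in P0 ISCs, 17.0% in P0 differentiated cells, 46.7% in P21 ISCs and 61.2% in P21 differentiated cells. The gaining stretch was 2121 bp long in ISCs and 1851 bp in differentiated cells, and the shorter one lay wholly inside the longer.

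Methylation fell with age in stretches on either side of the AI464131 island. The bin over its 5' edge, chr4:41446601-41446800, was instead higher at P21, by 18.1 points (11.97 to 24.9) in ISCs and 14.7 points (9.38 to 19.7) in differentiated cells. Further upstream, in 6 bins of intron 1 (chr4:41447401-41448800), the level over the bins tested was 81.6% (78.1 to 84.6%) in P0 ISCs, 77.3% (74.3 to 80.0%) in P0 differentiated cells, 49.0% (44.7 to 53.2%) in P21 ISCs and 46.2% (42.6 to 49.9%) in P21 differentiated cells. Each of the 6 bins lost methylation in differentiated cells, with exact adjusted p between 2.77e-26 and 0.0194. Downstream, in 4 bins of exon 2 past the coding sequence (chr4:41442801-41443800), the levels were 82.4% (77.7 to 86.2%), 87.2% (84.0 to 89.8%), 14.6% (11.4 to 18.6%) and 39.1% (34.7 to 43.7%) in the same order of libraries. Past the gene's end, 2 more bins (chr4:41441801-41442200) took differentiated cells from 79.4% (74.6 to 83.5%) to 34.6% (29.9 to 39.7%), and ISCs were at 74.1% and 33.5%.

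The downstream stretch of AI464131 held the 2 bins of the 4 windows that were called between the populations at P21. At chr4:41442801-41443000 the level was 79.7% in ISCs at P0 and 79.3% in differentiated cells at P0, and at P21 it was 10.8% (7.30 to 15.7%, 213 calls) in ISCs and 36.0% (30.01 to 42.5%, 222 calls) in differentiated cells, a gap of 25.2 points (17.5 to 32.6, exact adjusted p = 4.67e-06). At chr4:41443201-41443400 the P21 levels were 17.1% (8.10 to 32.7%, 35 calls) and 64.8% (51.5 to 76.2%, 54 calls), a gap of 47.7 points (27.2 to 62.2, exact adjusted p = 0.0128). At P0 the gaps of these bins were -0.425 points (-8.56 to 8.31) and 1.86 points (-4.01 to 10.2). Both populations fell with age here, and the ISC level was the lower of the 2 at P21. Each of these calls depended on a setting, since the bin with the larger gap has under 40 calls in ISCs and the other a gap under 30 points, so 1 bin was called at either limit, and 3 bins were called with at least 4 CpGs or with bins shifted by 100 bp. Whether the falls differed between the populations was not tested as such.

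Lpar5, the lysophosphatidic acid receptor, was higher at P21 in all parts of its island, most in the 5' part, and its middle part was the lowest at both ages. The 5' part was at 28.1% (24.6 to 31.9%) in P0 ISCs, 30.5% (28.4 to 32.7%) in P0 differentiated cells, 63.4% (59.5 to 67.1%) in P21 ISCs and 59.7% (57.1 to 62.2%) in P21 differentiated cells. The middle part was at 1.42%, 2.23%, 18.2% and 15.8%, and the 3' part at 45.2%, 45.4%, 56.6% and 55.2%. In differentiated cells the changes were 29.2 points (25.8 to 32.5), 13.6 points (11.2 to 16.05) and 9.75 points (5.10 to 14.3), and the interval of the 5' part lies above the other 2. The rising bin printed above went from 13.1% to 44.6% in differentiated cells (exact adjusted p = 3.37e-48), while the low bin went from 1.74% to 8.36%, a change of 6.61 points (4.35 to 9.13) that is under the 15-point limit. The gaining stretch was 470 bp long in ISCs and 288 bp in differentiated cells, and the shorter one lay inside the longer, but with windows of 11 CpGs the lengths were 442 bp and 451 bp, so no order is read from them.

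Lpar5 lost methylation at several places in its long intron 1. Close to the start of its second annotated transcript, which lies 3357 bp past the first, the level within 250 bp of that start was 58.4% (51.3 to 65.2%) in P0 ISCs, 67.5% (63.9 to 70.8%) in P0 differentiated cells, 12.7% (8.80 to 17.9%) in P21 ISCs and 30.3% (26.4 to 34.6%) in P21 differentiated cells. In the bin chr6:125021801-125022000 differentiated cells fell from 74.3% to 2.15% (exact adjusted p = 1.43e-25), and in ISCs it was 53.0% at P0 and 0 of 59 calls at P21, which by a limit of 3 calls allows a level of up to 5.08%. Further along, at chr6:125023401-125023600, differentiated cells fell from 74.0% to 4% (exact adjusted p = 3.46e-24) and ISCs were at 59.8% and 2.90%. Another 3 bins close to the island (chr6:125030201-125030800) took differentiated cells from 35.4% (30.9 to 40.1%) to 12.6% (9.44 to 16.6%), and ISCs were at 46.8% and 8.13%.

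Phospho1, the phosphatase, rose along the 5' edge of its island, and most of the island was low in every library. The 5' part was at 21.0% (18.03 to 24.3%) in P0 ISCs, 16.9% (15.2 to 18.8%) in P0 differentiated cells, 41.4% (37.6 to 45.4%) in P21 ISCs and 41.3% (38.6 to 44.0%) in P21 differentiated cells. The middle part was at 6.14%, 4.39%, 8.65% and 5.43%, and the 3' part at 5.65%, 4.64%, 4.31% and 2.13%. In differentiated cells the change was 24.3 points (21.1 to 27.5) in the 5' part, 1.04 points (-0.502 to 2.63) in the middle part and -2.51 points (-4.15 to -0.805) in the 3' part. The 2 bins called in differentiated cells lay in intron 2, from 48.8% to 81.0% (exact adjusted p = 5.49e-08) and from 30.9% to 56.5% (exact adjusted p = 6.57e-11). In ISCs these bins were at 62.9% and 34.3% at P0 and at 79.8% and 50% at P21, changes of 17.0 points (3.40 to 30.4) and 15.7 points (4.56 to 26.4).

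The next bin of Phospho1, chr11:95691801-95692000, was the only island bin of this gene past the limits in ISCs, with 8.20% at P0 and 27.1% at P21. In differentiated cells it was at 6.64% and 21.5%, a change of 14.8 points (11.6 to 18.2) with an exact adjusted p of 9.75e-18, so it missed the 15-point limit by its size and not by its p. The gaining stretches were 99 bp in ISCs and 510 bp in differentiated cells and did not overlap at these settings, but the one in ISCs was 261 bp with windows of 11 CpGs and 54 bp at 20 points. The one in differentiated cells was 225 bp at 20 points. Away from the island, 1 bin of intron 2 (chr11:95690401-95690600, 2 CpGs) fell from 67.2% to 10.4% in differentiated cells (exact adjusted p = 3.84e-19), and ISCs were at 64.4% and 9.21%.

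**Figure D3:**
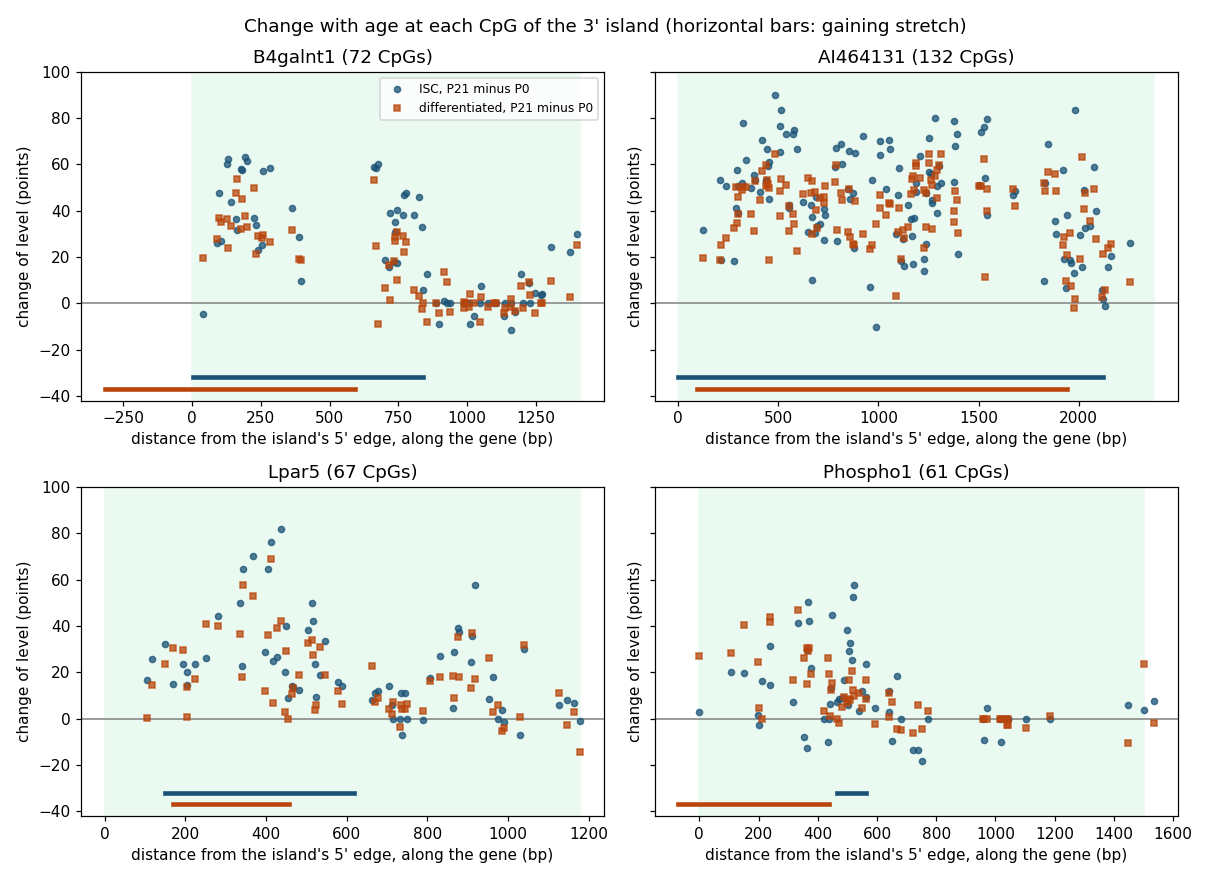
Change of level between P0 and P21 (points) at each CpG of the 3' island with at least 10 calls in all 4 libraries, against distance from the island's 5' edge along the gene (bp), for ISCs and differentiated cells, with the gaining stretches drawn as horizontal bars. In B4galnt1 and Phospho1 the changes are highest on the 5' side and near 0 over much of the 3' side, in Lpar5 they are highest on the 5' side and smaller further along, and in AI464131 they are high over most of the island.

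At single CpGs AI464131 again had the most gains. Of the CpGs with at least 10 calls in all 4 libraries, the level rose by more than 15 points in differentiated cells at 33 of 72 in B4galnt1, 123 of 132 in AI464131, 31 of 67 in Lpar5 and 20 of 61 in Phospho1, and none fell by more than 15 points. In ISCs the numbers were 40, 122, 37 and 19, and 1 CpG of Phospho1 fell by more than 15 points. The median change in differentiated cells was 9.50 points in B4galnt1, 43.5 in AI464131, 13.3 in Lpar5 and 7.32 in Phospho1. Single CpGs rest on few calls and are described without a test. Across the CpGs of an island the P21 level of differentiated cells followed that of ISCs, with Pearson's r of 0.920 over 72 CpGs in B4galnt1, 0.778 over 132 in AI464131, 0.967 over 67 in Lpar5 and 0.883 over 61 in Phospho1. The changes with age followed each other less closely, with r of 0.705, 0.454, 0.805 and 0.438 over the same CpGs. Neighbouring CpGs share reads and local base composition, so these are descriptions over positions that are not independent.

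At the start of the transcript whose coding sequence is longest, each gene was unmethylated or nearly so. Within 250 bp of that start the level was between 0.145% and 0.425% in the 4 libraries for B4galnt1, between 0.250% and 1.61% for AI464131 and between 0.204% and 0.703% for Phospho1. AI464131 and Lpar5 have no CGI at this start. The annotated coding sequence of Lpar5 is incomplete, so the choice of its main start by coding length is less sure. Lpar5, with 9 CpGs in that stretch, was at 8.06% (5.28 to 12.1%) in P0 ISCs, 5.79% (4.21 to 7.91%) in P0 differentiated cells, 1.79% (0.768 to 4.13%) in P21 ISCs and 1.89% (1.08 to 3.27%) in P21 differentiated cells. Other annotated starts could be methylated, such as the second one of Lpar5 described above and one of Phospho1 lying 4166 bp along the gene, with 5 CpGs, at 86.3% in P0 ISCs, 87.6% in P0 differentiated cells, 87.5% in P21 ISCs and 77.9% in P21 differentiated cells. At the main start the change in differentiated cells was -3.90 points (-6.17 to -1.80) for Lpar5, and for the other 3 genes its interval included 0. From 1000 bp before the start to 500 bp past it, the level also takes in the methylated flank and was 2.47% to 8.98% in B4galnt1, 11.3% to 19.5% in AI464131, 29.3% to 42.0% in Lpar5 and 5.03% to 9.21% in Phospho1. Of the bins in these promoter windows, 1 gained methylation in differentiated cells, at the far edge of the window of Phospho1 (chr11:95684801-95685000), from 41.2% to 57.7% (exact adjusted p = 0.00877). This bin was at 37.1% and 55.4% in ISCs, a change of 18.3 points (8.47 to 27.6), and passed the limits there as well. In ISCs, 1 bin of the Lpar5 window (chr6:125018201-125018400, 2 CpGs) was at 88.6% at P0 and 51.3% at P21, and in differentiated cells it was at 78.1% and 46.9%, which did not pass (exact adjusted p = 0.0657).

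**Figure D4:**
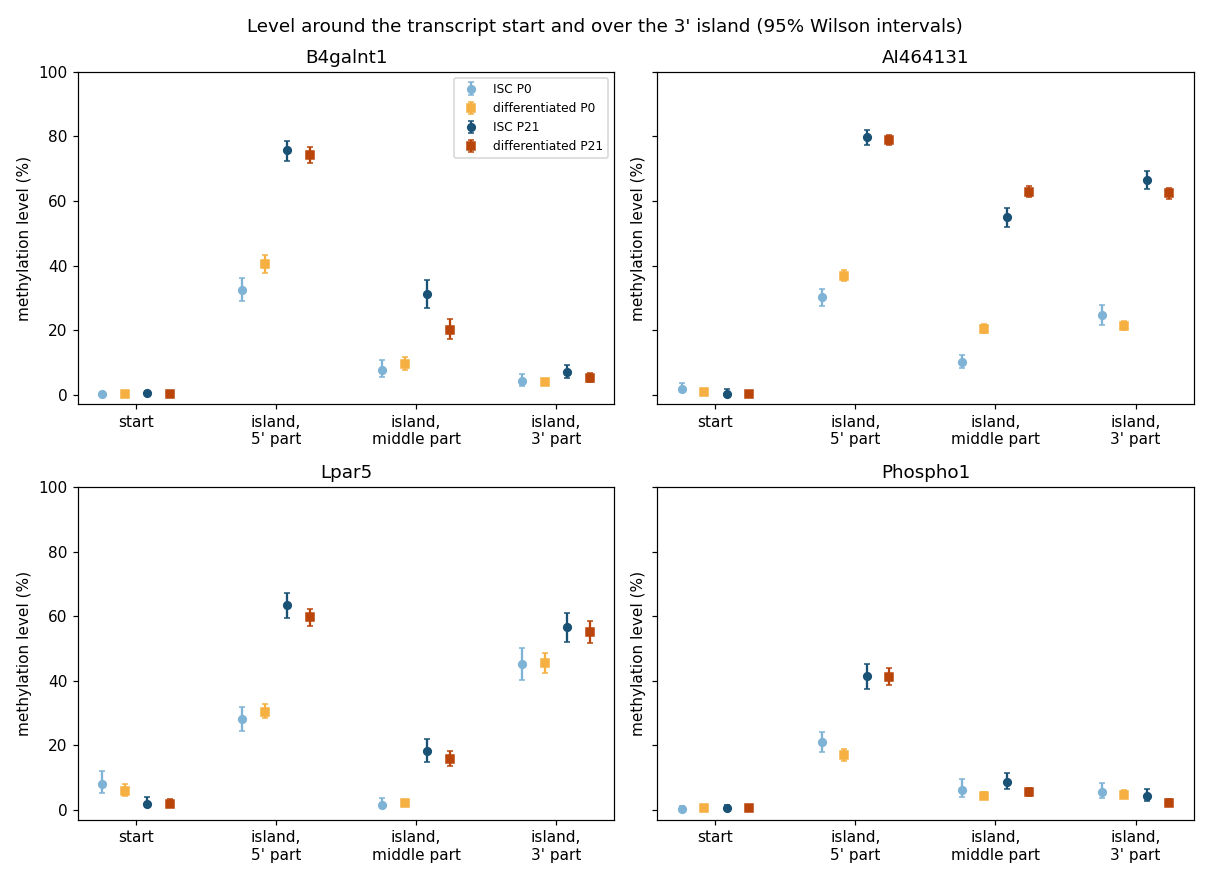
Methylation level (%) in the 4 libraries within 250 bp of the transcript start and over the 5', middle and 3' parts of the 3' island, as points with 95% Wilson intervals. At the start all levels lie between 0.145% and 8.06%, the P21 points lie above the P0 points in the 5' part of all 4 genes, and the 3' part differs little with age in B4galnt1 and Phospho1.

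Over whole islands, with the calls of both strands summed over all CpGs, the gap between differentiated cells and ISCs of the same age was at most 4.22 points in size. These gaps share the ISC libraries with the contrast that chose the genes and are given as descriptions. Over the whole island the gap, differentiated minus ISC, was -0.206 points (-2.49 to 1.98) at P0 and -3.91 points (-6.78 to -1.04) at P21 in B4galnt1. It was 3.67 points (1.87 to 5.41) and 0.984 points (-0.841 to 2.84) in AI464131, -2.55 points (-5.41 to 0.201) and -3.27 points (-6.34 to -0.195) in Lpar5, and -4.22 points (-6.34 to -2.25) and -1.63 points (-4.01 to 0.672) in Phospho1. The change with age in differentiated cells over the same islands was larger than any of these gaps, at 20.03 points (17.8 to 22.2), 42.7 points (41.4 to 44.0), 19.9 points (17.7 to 22.1) and 8.95 points (7.41 to 10.5). A pooled level weights each CpG by its calls, and these were spread over the parts differently in each library. In Lpar5 at P0 the gap was above 0 in every part. It was 2.38 points (-1.97 to 6.53) in the 5', 0.815 (-1.46 to 2.09) in the middle and 0.274 (-5.55 to 6.04) in the 3' part. No direction is therefore read from its pooled gap at P0. Within an island the gaps were wider in places. In the 5' part of B4galnt1 the gap was 7.95 points (3.38 to 12.4) at P0. In the middle part of B4galnt1 it was -10.9 points (-16.3 to -5.70) at P21, about as large as the change with age of 10.6 points there. In AI464131 it was 10.3 points (7.88 to 12.5) at P0 and 7.93 points (4.58 to 11.3) at P21 in the middle part, and -3.11 points (-6.72 to 0.267) and -4.21 points (-7.42 to -0.932) in the 3' part. The values of B4galnt1 depended on the strand read. Its change in differentiated cells was 13.2 points (10.3 to 16.1) on the forward strand and 25.9 points (22.9 to 28.9) on the reverse strand, and its gap at P21 was -13.6 points (-17.4 to -9.69) on the forward strand, as large as that change, and 2.03 points (-2.10 to 6.13) on the reverse strand, so no direction is read from it. Gaps of other islands moved too: that of Lpar5 at P21 was -8.11 points on the forward strand, and that of AI464131 at P0 was 6.05 points as a mean over CpGs and 1.03 points on the reverse strand. At P21 that of AI464131 was 4.25 points on the reverse strand. As a mean over CpGs the gap at P0 was 2.34 points in Lpar5, opposite in sign to the pooled gap, and -1.95 points in Phospho1.

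Single bins were called between the populations 2 times at each age, and these numbers were not tested against the shares of all autosomal bins. Only 1 bin was called at P0 with at least 20 calls, with at least 40 calls or with calls thinned to the lowest library. At 15 points without a test, 25 bins passed at P0 and 17 at P21. At P0, 2 of the 227 bins were called, where 0.508% of all autosomal bins were, and both belonged to B4galnt1. One was the intron 8 bin of the island, chr10:126607401-126607600, where ISCs were at 16.05% (9.63 to 25.5%) and differentiated cells at 50% (35.2 to 64.8%) and which had 17 calls in differentiated cells at P21 and 40 at P0. The ISC level of this island helped to choose the gene, so its gap is a description. The other lay upstream of the gene, chr10:126597401-126597600, where ISCs were at 85.7% (77.8 to 91.1%) and differentiated cells at 51.6% (44.5 to 58.6%) (exact adjusted p = 1.86e-05). At P21 the 2 called bins were those of AI464131 described above, where 0.182% of all autosomal bins were called. The bin of AI464131 with the most CpGs differed by less than 15 points at both ages, 9.46 points (6.53 to 12.01) at P0 and 14.5 points (9.78 to 19.1) at P21, which is again a description.

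Set beside the 3' islands of other genes, the 4 lay toward the upper end of the change in differentiated cells. Among 4727 autosomal genes with such an island, the median change was 0.391 points and the 95th percentile 9.73 points. Only 1349 of these islands reached the last exon, and the other 3378, that of B4galnt1 included, did not. The study counted only the last exon and 3' UTR as the 3' end, so this set is wider than its 3' islands. Many of these islands had little room to gain, since their median level in P0 differentiated cells was 76.2%, and 2022 of them, with a median change of 0.241 points, were under 50% there, where the 4 islands were at 9.22% to 25.5%. Among all 4727, AI464131 ranked 6 from the highest, B4galnt1 77, Lpar5 78 and Phospho1 266, so Phospho1 was below the 95th percentile. A gaining island bin in differentiated cells was found in 335 of these genes (7.09%).

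**Figure D5:**
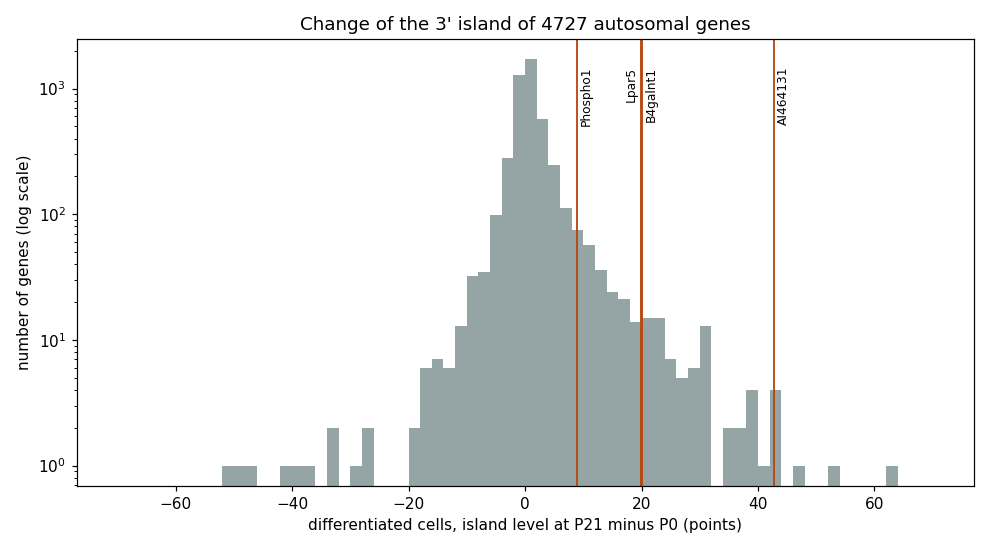
Number of genes (log scale) by the change of their 3' island between P0 and P21 in differentiated cells (points), for 4727 autosomal genes, with vertical lines at the 4 genes. Most islands lie near 0 with a median of 0.391 points, and the lines stand at 8.95 for Phospho1, 19.9 for Lpar5, 20.03 for B4galnt1 and 42.7 for AI464131.

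Genes of the same pathways or families, in 4 lists by function, were read over windows built the same way. Of the 9 genes of these lists with a 3' island, none had a gaining bin in it in differentiated cells, where 7.09% of all genes with such an island did, and Gaa had 1 in ISCs. So few genes cannot show a difference from that share. Together with 3 glycan genes picked by the study they held 25 autosomal genes and 3495 tested bins, of which 0.858% gained and 3.09% lost methylation in differentiated cells, beside 0.992% and 1.86% of all autosomal bins. Among 9 other genes of ganglioside synthesis, such as Ugcg and B4galt5, which make glucosylceramide and lactosylceramide, and St3gal5, which makes the ganglioside GM3, 10 of 1687 bins gained and 46 lost methylation. Of 5 glycoside hydrolase family 31 genes, including Gaa, the lysosomal alpha-glucosidase, and Sis, the brush border sucrase-isomaltase, 2 of 529 bins gained and 10 lost. Of 4 autosomal lysophosphatidic acid receptor genes (Lpar1, Lpar2, Lpar3 and Lpar6), 6 of 563 bins gained and 18 lost, and the 3' islands of Lpar2 and Lpar3 were at 90.5% to 93.4% and 57.9% to 63.9% over the 4 libraries. The last list held 4 genes of phosphoester cleavage and mineralisation, namely the phosphatase genes Phospho2 and Alpl, the sphingomyelin phosphodiesterase gene Smpd3 and the pyrophosphatase and phosphodiesterase gene Enpp1, which together had 2 gaining and 29 losing bins of 514, the highest share of losing bins among these lists at 5.64%.

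A further list held 3 glycan genes that the study itself had picked for this change in these libraries, so it is no independent evidence of its direction. Of these, Gal3st1, a sulfotransferase that makes sulfatide, had a 3' island at 49.5% in both populations at P0 and at 80.1% (ISCs) and 79.7% (differentiated cells) at P21, with 5 of 7 island bins gained in differentiated cells. B4galnt4 was at 8.42% and 16.3% in ISCs and at 6.01% and 6.59% in differentiated cells, with no gaining island bin in the latter. The island taken for A3galt2 was already high at P0, between 83.0% and 84.1% in the 4 libraries. These islands follow the rule given above and need not be those of the study. Over the whole A3galt2 window, 1 of 61 bins gained in ISCs and 2 in differentiated cells. Over that of B4galnt4, 3 of 69 bins gained in ISCs and 2 in differentiated cells. The shares over all autosomal bins were 1.07% and 0.992%.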

How the data were processed

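The authors trimmed bisulfite reads, mapped them to mm9 with Bismark and deposited for each CpG cytosine the count of reads covering it and how many of those calls were methylated. The deposited fraction is their ratio and was recomputed, not used. Neither the Bismark version nor the treatment of duplicate reads is stated there, and remaining duplicates would make p-values too small.

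Positions off a reference CpG (0.465% to 0.850% per library) were left out, and both strands of a CpG were summed. Calls were summed over 200-bp bins. Autosomal bins with at least 2 CpGs and 10 calls in all 4 libraries were tested with a two-sided Fisher's exact test, adjusted by Benjamini-Hochberg over all bins genome-wide, and called at an adjusted p below 0.05 and a difference over 15 points, the size used in the study. Calls on 1 read are not independent. Transcript starts, exons and islands came from GENCODE M1 and the mm9 sequence, using the transcript whose coding sequence is longest. Calling was tested on simulated data with known changes. Python 3.11.15, numpy 2.4.6, scipy 1.17.1 and numba 0.67.0 were used.

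The genes, lists and bins were chosen with earlier results of these data known. The genes named were the 4 genes and their functional relatives, and alternatives are given at the end. No protein sequence was used here, and 1 gene of the study is not reported here.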

Additional observations from a re-analysis of the deposited data

How the results depend on the processing

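With 1 library per group, no replicate could be left out, and no paired analysis was possible because the labels give no replicate numbers shared between groups. No alternative turned the change with age of an island in either population, 27 of 40 such values moved by less than their counting interval, and the cause of the other moves was not tested. Counting only the forward strand gave 27.6 points in ISCs and 13.2 in differentiated cells for B4galnt1, 49.6 in ISCs for AI464131, and 14.0 for Lpar5 and 7.35 for Phospho1 in differentiated cells. The reverse strand gave 25.9 points for B4galnt1 in differentiated cells and 38.3 for AI464131 in ISCs. The mean over CpGs gave 14.6, 39.8, 17.0 and 10.6 points in differentiated cells for B4galnt1, AI464131, Lpar5 and Phospho1, and 10.6 points for Phospho1 in ISCs, and islands called from sequence gave 41.3 points for AI464131 in differentiated cells. The gap at P21 of B4galnt1 was -13.6 points on the forward strand and reversed to 2.03 points on the reverse strand, that of Lpar5 was -8.11 points on the forward strand, and that of AI464131 was 4.25 points on the reverse strand. The gap at P0 of AI464131 was 1.03 points on the reverse strand, and as a mean over CpGs the gaps at P0 were 2.49, 6.05, 2.34 and -1.95 points in the 4 genes in the same order.

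Taken 500 bp on either side of the start, the promoter level fell in all 16 cases. For P0 ISCs, P0 differentiated cells, P21 ISCs and P21 differentiated cells it was then 3.90%, 1.61%, 2.60% and 1.49% in B4galnt1, 7.62%, 5.65%, 5.54% and 4.24% in AI464131, 18.1%, 14.2%, 9.01% and 4.17% in Lpar5, and 0.851%, 0.639%, 0.939% and 0.980% in Phospho1. The gaining stretch of Phospho1 in ISCs was 261 bp with windows of 11 CpGs and 54 bp at a limit of 20 points, in differentiated cells it was 225 bp at 20 points, and that of Lpar5 in differentiated cells was 451 bp with windows of 11 CpGs.

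At a limit of 30 points 16 bins gained in ISCs and 14 in differentiated cells. Between the populations at P0 1 bin was called with at least 20 calls, with at least 40 calls or with calls thinned to the lowest library, and 25 bins were called at 15 points without a test. At P21 1 bin was called with at least 40 calls or at 30 points, and 17 bins at 15 points without a test.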
